A study of Homo sapiens with 6 samples.

Results

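To examine whether IL-17A altered the autophagy and lysosome genes of diffuse large B-cell lymphoma (DLBCL) cells, 46 genes were followed in SU-DHL-2 cells, an established DLBCL line. They were chosen by name: the ULK, ATG and class III PI3K genes, the LC3 and GABARAP genes, cargo receptors, the MiT/TFE transcription factors, and membrane proteins and enzymes of the lysosome. The whole array held probes for 19740 named genes, of which 14747 were tested. RNA was taken from 3 samples given IL-17A at 200 pg/ml for 72 h and from 3 control samples kept in the same RPMI 1640 medium with 10% FBS but no IL-17A, and measured on 1-colour arrays, 1 array per sample. All 6 came from this single unmodified line, so that nothing here extends to other DLBCL cells. The labels do not say whether the samples of a group were separate cultures, so the p-values measure the spread between these samples, which may be technical.

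Autophagy encloses cytoplasm in a double membrane, the autophagosome, and delivers it to lysosomes for breakdown. The ULK complex starts the process, and a class III PI3K complex marks the site with a phosphoinositide lipid. Conjugation enzymes then attach LC3 and GABARAP proteins to the growing membrane, where cargo receptors dock. MiT/TFE factors, which mTORC1 restrains when nutrients are plentiful, drive many lysosomal and autophagy genes through a promoter element called CLEAR. In B cells, autophagy is known for its part in the survival of memory B cells and plasma cells, and lysosomal cathepsins process antigen for MHC class II.

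Of the 46 genes, 45 were matched to a probe through a RefSeq accession, and 42 had a probe that was detected, that is positive, significant and well above background, on at least 3 of the 6 arrays. All 42 were detected on all 6 arrays at the brightest tested probe, which represents each gene. NBR1, a cargo receptor, was not matched and was not analysed here. OPTN, another cargo receptor, had 1 probe, detected on 2 arrays, with log2 signals of 1.33 to 2.93. ULK2, a paralog of the kinase ULK1, had 3 probes, none of them detected on any array. MITF, the melanocyte member of the MiT/TFE factors, had 3 probes, of which 2 were detected on 1 array each and the third on none. These genes were not tested.

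The arrays were alike, with Pearson correlations across probes of 0.994 to 0.997 within a group and 0.993 to 0.995 between groups, and probes are not independent replicates. The controls were read in 1 scan together with IL-17A replicate 1, and IL-17A replicates 2 and 3 in another, so that scan and treatment overlap in part. All 10 B-cell markers examined were detected on all 6 arrays, PAX5 only weakly, at a mean log2 signal of 3.76. Of 10 T-cell and NK-cell markers, 8 were also detected on every array, CD3D, CD3G, CD7 and CD8A among them. Of 8 monocyte and macrophage markers with a probe, MS4A7 (mean log2 signal 7.46) and CD14 (5.07) were detected on all 6 arrays, MARCO on 5, and CD163, CSF1R, VSIG4, S100A8 and S100A9 on none. The summed signal of the T-cell and NK-cell markers was 271 to 281 with IL-17A and 274 to 292 in the controls. CD3E, which was dim, was lower (mean log2 signal 2.78 against 3.24, adjusted p = 0.0401 from limma). CD2, also dim, was higher (3.16 against 2.65, adjusted p = 0.0539 from limma). Of the other detected markers, CD3G, CD7, NKG7 and GNLY had higher means with IL-17A, and CD3D and CD8A had lower ones. The summed signal of the erythroid markers was 179 to 254 against 290 to 329. In bulk RNA, fewer cells expressing a gene and less of its RNA per cell cannot be told apart, and precision is limited by how few arrays there were.

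Only 1 of the 42 tested genes passed an adjusted p of 0.05, and that call was lost with scan as a block or when any single array was left out. GABARAPL1, an LC3-like protein of the GABARAP branch, rose 1.21-fold (adjusted p = 0.0327 from limma, Benjamini-Hochberg over all tested probes). Among all 14747 genes, 7.85% passed the same threshold, so that 2.38% of the autophagy and lysosome genes did so against this background. None of the 42 genes passed the fold change of 1.5 together with an unadjusted p under 0.05, as 1.92% of all genes did. Higher and lower genes were balanced, with 21 each, and the median log2 fold change was -0.00, against 0.00 over all genes. At an unadjusted p under 0.05 from limma, 12 genes differed, 8 higher and 4 lower, or 28.6% against 31.8% of all genes. The 3 IL-17A arrays did not overlap with the 3 control arrays for 19 genes, or 45.2%, against 40.7% of all genes. The 95% interval of the log2 fold change lay within 1.5-fold in both directions for 39 of the 42 genes, against 84.2% of all genes. The exceptions were MAP1LC3A, CTSL and CTSZ, for which a change of that size was not resolved.

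**Figure D1:**
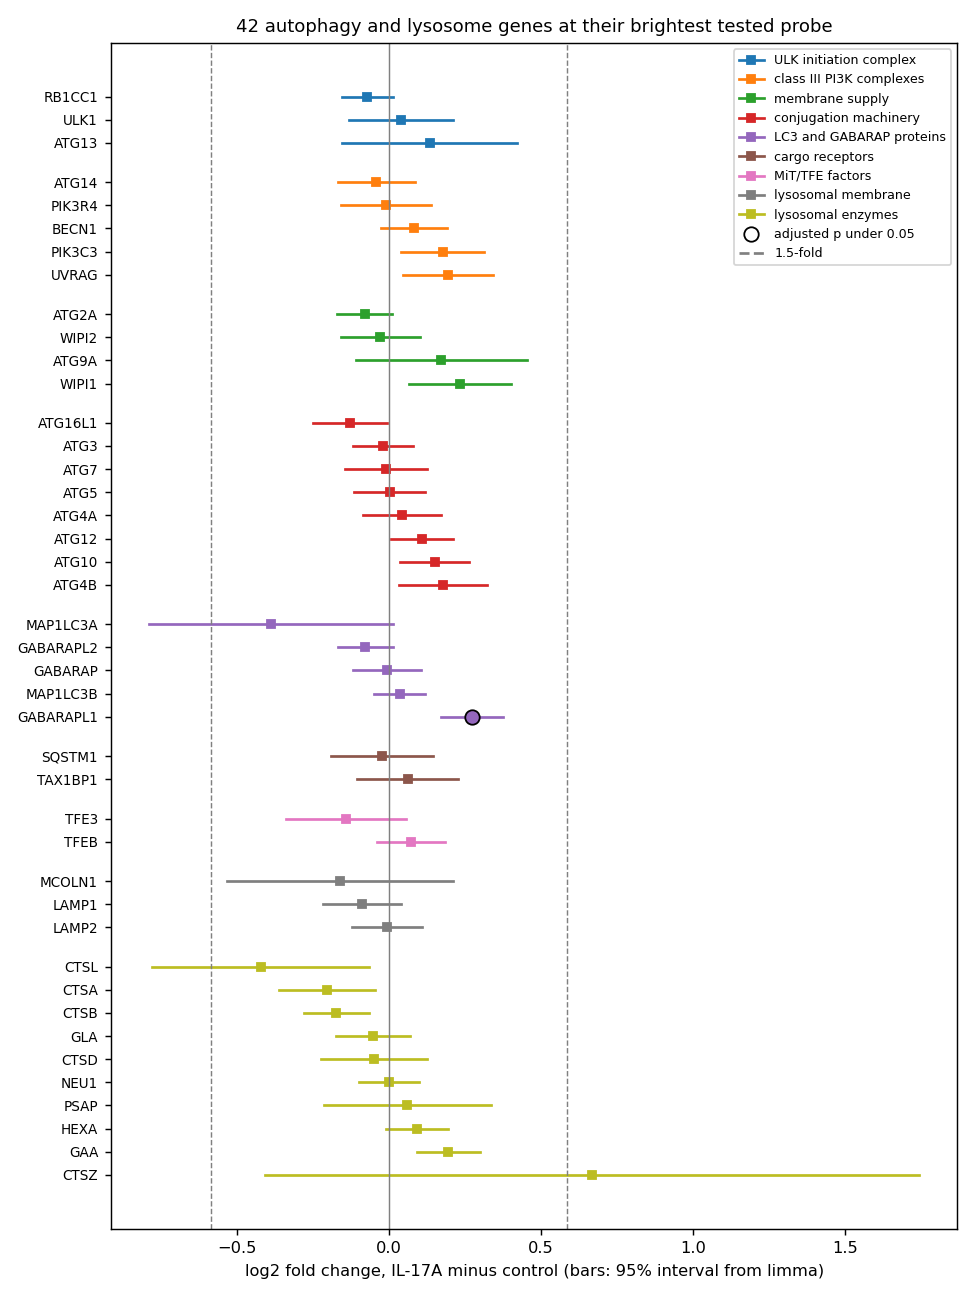
Log2 fold change (IL-17A minus control, x axis) of the 42 tested genes at their brightest probe, in blocks by role, with the 95% interval from limma as a bar. Dashed lines mark 1.5-fold. GABARAPL1, circled in black, is the only gene with an adjusted p under 0.05, and only the bars of MAP1LC3A, CTSL and CTSZ reach past a dashed line.

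The promoter of GABARAPL1, the gene that passed the test, is shown with those promoters in which the CLEAR core was found. Those were chosen because MiT/TFE factors are known to act through that element. The windows run from 250 bases before to 50 after each gene's start in RefSeq (GRCh38.p14), and 39 of the 46 genes had one. CTSB, HEXA, LAMP2, MAP1LC3A, PSAP, RB1CC1 and UVRAG had no entry. The GABARAPL1 window lies on the plus strand at chr12:10212627-10212926.
GABARAPL1: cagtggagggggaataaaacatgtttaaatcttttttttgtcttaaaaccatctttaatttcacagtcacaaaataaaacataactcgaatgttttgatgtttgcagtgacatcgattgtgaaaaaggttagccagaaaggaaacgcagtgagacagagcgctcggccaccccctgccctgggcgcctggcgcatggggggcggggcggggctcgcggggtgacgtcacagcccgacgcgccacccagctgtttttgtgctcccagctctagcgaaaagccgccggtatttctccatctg
The letters searched were GTCACGTG, the CLEAR core, on both strands, and CACGTG, the E-box inside it, which reads the same on both strands. Neither occurs in the GABARAPL1 window. The core was found in 7 of the 39 promoters (17.9%), against 2.53% of 27305 promoters of the same length, and the E-box in 8 (20.5%), against 7.43%. In the following 30-base windows, written 5′ to 3′ on the gene's strand, capitals mark the core, which reads CACGTGAC where it lies on the other strand.
ATG14 (chr14:55411833-55411862, minus): aaacaaaatccCACGTGACtggctctcctc
ATG3 (chr3:112561964-112561993, minus): ccctttctcacGTCACGTGccgggagagtc
LAMP1 (chr13:113297034-113297063, plus): gaccaggccggGTCACGTGggtccagggtc
MCOLN1 (chr19:7522570-7522599, plus): gaccagaggcgGTCACGTGaggggctctgg
CTSA (chr20:45891280-45891309, plus): ggaggaagactGTCACGTGgcgccggagtt
CTSD (chr11:1763956-1763985, minus): ccggccgcgccCACGTGACcggtccgggtg
GAA (chr17:80101492-80101521, plus): cgggaggccgcGTCACGTGACccaccgcgg
Only the first core of each promoter is shown. LAMP1 held 6, GAA 4, MCOLN1 3, and ATG3 and CTSA 2 each. In GAA, and in MCOLN1 outside the window shown, cores on both strands overlap. These 7 genes had log2 fold changes between -0.20 for CTSA and 0.20 for GAA, with a median of -0.05. Of them, 1 was higher and 6 were lower with IL-17A, where 49.1% of all genes were lower. ATG3 and CTSD, 2 of the lower genes, had only -0.019 and -0.048. With scan as a block they had 0.003 and 0.013, while the other genes kept their sign. The count of lower genes is therefore not read as a trait of promoters with the core. None of the 7 genes had an adjusted p under 0.05 from limma. A match of letters describes the sequence and does not show that a factor binds there.

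GABARAPL1 was measured by 2 probes, and both showed the rise. At the brightest probe, the log2 signal was 8.88, 8.89 and 8.91 on the control arrays and 9.13, 9.23 and 9.14 on the IL-17A arrays. All IL-17A arrays were above all controls, and the gap between the groups was wider than the spread within either. The log2 fold change was 0.27 (standard error, SE, 0.04, 95% interval 0.17 to 0.38, unadjusted p = 0.000698 from limma). At the other, dimmer probe, the controls had log2 signals of 6.11, 6.10 and 6.18, and the IL-17A arrays had 6.69, 6.51 and 6.62. The groups again did not overlap, and this probe rose 1.40-fold, 0.48 on the log2 scale (SE 0.06, adjusted p = 0.0313 from limma). The size of the rise at the dimmer probe depended on the background correction. With normexp background correction, the log2 fold change was 0.214 there and 0.210 at the brightest probe. With scan as a block, which compares IL-17A replicate 1 with the controls of its own scan, the log2 fold change was 0.24 at the brightest probe and 0.57 at the other (unadjusted p = 0.00999 and 0.00064, adjusted p = 0.124 and 0.0824 from limma). The unadjusted p stayed under 0.05 at both probes without any 1 of the 6 arrays. The adjusted p of the brightest probe did not, rising to between 0.0515 (without control replicate 3) and 0.136 (without control replicate 2), while the share of all probes with an adjusted p under 0.05 fell from 7.59% to between 0.00835% and 4.11%.

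The other members of this family, which coat the autophagosome and recruit cargo, did not pass the test. MAP1LC3B, the usual marker of autophagosomes, had a log2 fold change of 0.04 (95% interval -0.05 to 0.12), and its second probe had 0.12. GABARAP had -0.01 and GABARAPL2 -0.08, with intervals of -0.12 to 0.11 and -0.17 to 0.01. MAP1LC3A was dim. Its log2 signal was 3.67, 4.11 and 4.12 on the control arrays and 3.81, 3.47 and 3.46 with IL-17A. IL-17A replicate 1 lay within the range of the controls. The log2 fold change was -0.39 (SE 0.16, adjusted p = 0.169 from limma), -0.15 with scan as a block and -0.06 with normexp background correction.

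**Figure D2:**
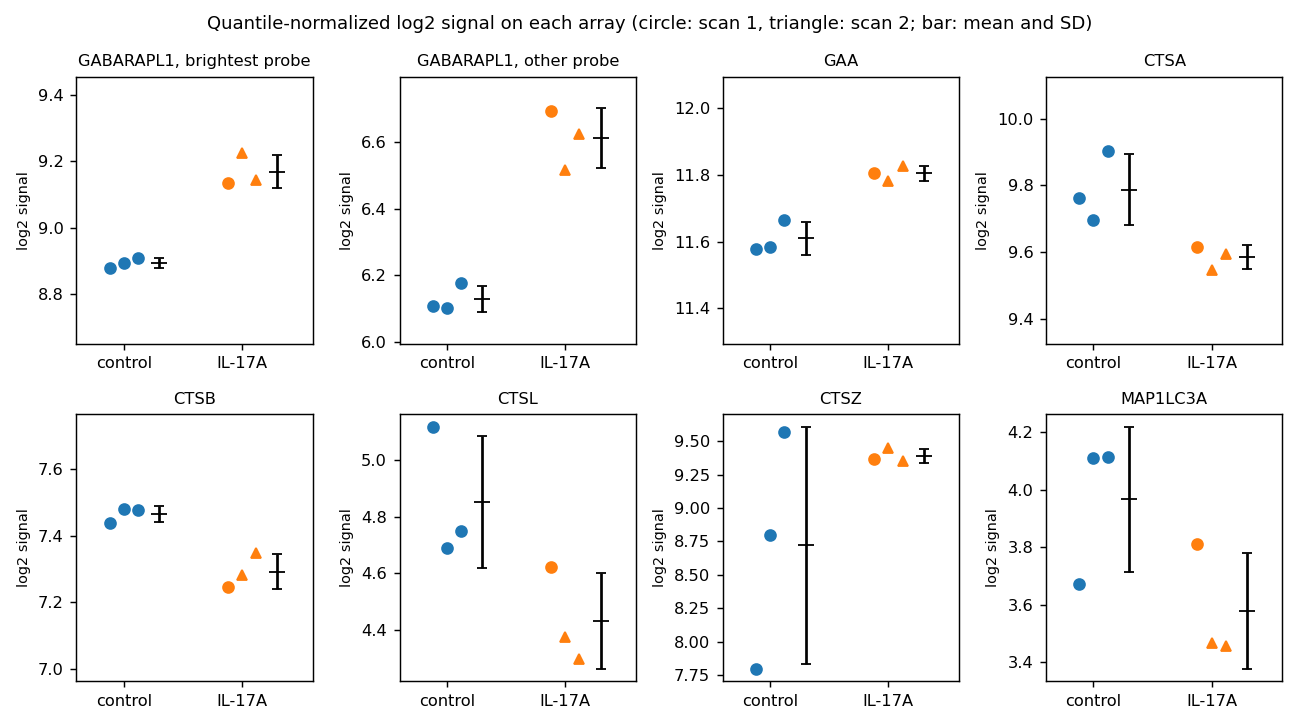
Quantile-normalized log2 signal (y axis, a scale of its own in each panel) on each of the 3 control and 3 IL-17A arrays for 7 genes, with the group mean and SD as a black bar beside the points. Circles are the arrays of the scan that held the controls and triangles those of the other scan. The groups are apart at both probes of GABARAPL1, and the controls of CTSZ are spread from 7.80 to 9.57.

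The listed initiation genes did not pass the test in either direction. Of the ULK complex, 3 of the 4 listed genes were tested. ATG101, a further subunit given below with the further genes, did pass (log2 fold change -0.25, adjusted p = 0.0349 from limma). ULK1, its kinase, had a log2 fold change of 0.04, ATG13, a regulatory subunit, of 0.13, and RB1CC1 (FIP200), its scaffold, of -0.07. ATG13 was the gene of the complex with the widest interval, -0.15 to 0.42, since IL-17A replicate 1 had a log2 signal of 6.77, against 6.38 and 6.54 on the other IL-17A arrays and 6.32 to 6.55 in the controls. With scan as a block, which rests on that array, its log2 fold change was 0.34 (unadjusted p = 0.0346, adjusted p = 0.183 from limma).

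Of the 5 class III PI3K genes, 2 were higher at an unadjusted p under 0.05, where 16.9% of all genes were, and none had an adjusted p under 0.05 from limma. PIK3C3 (VPS34), the lipid kinase, had log2 signals of 9.01, 9.09 and 9.16 in the controls and 9.24, 9.32 and 9.22 with IL-17A. UVRAG, a subunit of the complex that acts on endosomes and late in autophagy, had 9.23, 9.33 and 9.41 in the controls and 9.45, 9.55 and 9.55 with IL-17A. Neither gene overlapped between the groups. Their log2 fold changes were 0.18 (SE 0.05) and 0.19 (SE 0.06), with adjusted p = 0.0961 and 0.096 from limma. With scan as a block they were 0.16 and 0.13. On all arrays, BECN1, the regulatory core subunit, had 0.08 and PIK3R4, the VPS15 scaffold, -0.01. ATG14, which directs the complex to autophagosome formation, had -0.04.

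Among the genes that supply membrane, WIPI1 had the highest log2 fold change. WIPI1 and WIPI2 bind the lipid made by PIK3C3. The log2 signal of WIPI1 was 8.48, 8.55 and 8.69 in the controls and 8.75, 8.87 and 8.80 with IL-17A, without overlap. The log2 fold change of 0.23 (SE 0.07, adjusted p = 0.0855 from limma) did not pass the test, and with scan as a block it was 0.18. WIPI2 had -0.03 at its brightest probe and -0.15 at its other probe (adjusted p = 0.0703 from limma). ATG2A, a lipid transfer protein, had -0.08, and ATG9A, a scramblase carried on vesicles, 0.17.

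The 8 genes of the conjugation machinery also stayed within small differences, between -0.13 and 0.18 on the log2 scale at their brightest probes. ATG12, the ubiquitin-like protein joined to ATG5, had log2 signals of 10.66, 10.66 and 10.65 in the controls and 10.82, 10.73 and 10.75 with IL-17A. ATG10, the enzyme that carries out this joining, had 5.85, 5.92 and 5.87 in the controls and 6.08, 5.98 and 6.04 with IL-17A. Both genes were without overlap, with log2 fold changes of 0.11 and 0.15 (adjusted p = 0.138 and 0.0915 from limma), and both had a second probe that was higher with IL-17A. ATG4B, a protease that trims LC3 and GABARAP proteins, had 10.45, 10.52 and 10.63 in the controls and 10.69, 10.76 and 10.69 with IL-17A. Its log2 fold change was 0.18 (adjusted p = 0.109 from limma), and that of its dimmer probe was -0.02. With scan as a block, the brightest probe of ATG4B had 0.16.

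ATG16L1, which places the ATG12-ATG5 conjugate on the membrane, was lower at its brightest probe. The controls had log2 signals of 8.35, 8.31 and 8.25, and the IL-17A arrays had 8.16, 8.13 and 8.24. The highest IL-17A array was just under the lowest control. The log2 fold change was -0.13 (adjusted p = 0.149 from limma), but 0.23 at the dimmer probe of the gene.

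The probes of ATG5 disagreed. At the brightest probe, the controls had log2 signals of 9.92, 9.96 and 10.04 and the IL-17A arrays 9.96, 10.02 and 9.95, a log2 fold change of 0.00 (95% interval -0.11 to 0.12). At the other probe, the controls had 6.76, 6.82 and 6.85 and the IL-17A arrays 6.54, 6.59 and 6.61. This probe fell by 0.23 on the log2 scale (SE 0.04, adjusted p = 0.0432 from limma), and with scan as a block its log2 fold change was -0.27 (unadjusted p = 0.00766). Of the 60 tested probes of the 42 genes, 3 had an adjusted p under 0.05, where 7.59% of all tested probes did. Both probes of GABARAPL1 were higher, as were 4.43% of all tested probes at that threshold, and this one of ATG5 was lower, as were 3.17%. Probes of 6 of the 17 genes with several tested probes differed in sign, ATG4B, ATG5, ATG7, ATG16L1, LAMP2 and TFEB. ATG7, the activating enzyme, had -0.01 and 0.05, ATG3, the enzyme that transfers LC3, had -0.02, and the protease ATG4A 0.04.

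Cargo receptors and MiT/TFE factors did not pass the test. SQSTM1 (p62), which links ubiquitinated cargo to LC3, had log2 signals of 8.91, 8.83 and 8.78 in the controls and 8.91, 8.71 and 8.84 with IL-17A. The groups overlapped, and the log2 fold change was -0.02 (95% interval -0.19 to 0.14). TAX1BP1, a receptor of the same kind, had 0.06. TFEB was well above background on all arrays, with 10.99, 11.07 and 11.09 in the controls and 11.17, 11.10 and 11.10 with IL-17A at its brightest probe. The difference of 0.07 (95% interval -0.04 to 0.19) was small, and its other probe had -0.01. TFE3 had -0.14 and -0.15 at its 2 probes, with overlap between the groups at the brightest. These are transcript levels, and MiT/TFE activity is regulated largely by where the protein is in the cell.

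None of the lysosomal genes among the 42 passed the test. Of the 10 enzyme genes, all tested, 1 was higher and 3 were lower at an unadjusted p under 0.05 from limma, where 16.9% of all genes were higher and 14.8% lower. GAA, which breaks down glycogen in the lysosome, was nearest to the threshold. Its log2 signal was 11.58, 11.58 and 11.67 in the controls and 11.81, 11.78 and 11.83 with IL-17A. All IL-17A arrays were higher, by 0.20 on the log2 scale (SE 0.04, adjusted p = 0.0501), and by the same amount, 0.20, with scan as a block (unadjusted p = 0.0269).

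The 3 lower genes were cathepsins. CTSB, a cysteine protease, had log2 signals of 7.44, 7.48 and 7.48 in the controls and 7.24, 7.28 and 7.35 with IL-17A. CTSA, a serine carboxypeptidase that also stabilizes neuraminidase 1, had 9.76, 9.70 and 9.90 in the controls and 9.62, 9.55 and 9.59 with IL-17A. Neither overlapped between the groups. The log2 fold changes were -0.17 for CTSB (SE 0.04, adjusted p = 0.0641 from limma) and -0.20 for CTSA (SE 0.06, adjusted p = 0.0989), whose second probe had -0.14. With scan as a block, CTSB had -0.22 and CTSA -0.17 at their brightest probes.

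CTSL, another cysteine protease, was dim, with log2 signals of 5.12, 4.69 and 4.75 in the controls and 4.62, 4.38 and 4.30 with IL-17A. IL-17A replicate 1, which shared the controls' scan, was closest to them. The log2 fold change of -0.42 (SE 0.14, adjusted p = 0.117 from limma) was -0.23 with scan as a block, and -0.11 with normexp background correction. The summed signal of the monocyte and macrophage markers was also lower with IL-17A, 203 to 216 against 235 to 268 in the controls, and its part in the differences of the cathepsins was not tested. Most of that sum, 73.5% to 79.3% on each array, was MS4A7 (mean log2 signal 7.31 against 7.61, adjusted p = 0.0602 from limma). The sum of the other markers overlapped between the groups, 44.7 to 53.9 against 51.5 to 61.8, and CD14 had means of 5.04 and 5.10 (adjusted p = 0.584).

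CTSZ, a carboxypeptidase of the cathepsin family, had the largest log2 fold change of the 42 genes and also the largest spread. The controls had log2 signals of 7.80, 8.80 and 9.57, whereas the IL-17A arrays had 9.37, 9.45 and 9.35. Control replicate 3 was above all IL-17A arrays, and control replicate 1 was far below them. The controls thus differed by up to 3.41-fold, and the IL-17A arrays by 1.07-fold. The log2 fold change was 0.67 (SE 0.43, 95% interval -0.41 to 1.74, adjusted p = 0.338 from limma), no larger than the spread of the controls. Without control replicate 3 it was 1.09 (unadjusted p = 0.0183, adjusted p = 0.0961), which passed 1.5-fold, and without control replicate 1 it was 0.21 (unadjusted p = 0.426). The gene was measured by a single spot on each array, as were the brightest probes of GABARAPL1, GAA, CTSA, CTSB, CTSL and MAP1LC3A. Of 10050 tested genes with a mean log2 signal above 6, only GAS7, SERTAD2, ACP4 and CTSZ had an SD between the controls as large as 0.89, the value of CTSZ, where the median gene had 0.05. GAS7, SERTAD2 and ACP4 are given here because of those values.

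The remaining lysosomal genes had an unadjusted p of 0.05 or above. HEXA, a subunit of beta-hexosaminidase, had a log2 fold change of 0.09, and PSAP, the precursor of the saposins, 0.06. NEU1, the neuraminidase that CTSA stabilizes, had 0.00 (95% interval -0.10 to 0.10), GLA, the alpha-galactosidase, -0.05, and CTSD, an aspartic protease, -0.05. LAMP1 and LAMP2, the abundant glycoproteins of the lysosomal membrane, had -0.09 and -0.00, and the calcium channel MCOLN1 had -0.16 (95% interval -0.53 to 0.21), at a dim mean log2 signal of 4.26 in the controls. Across all 28 genes without an unadjusted p under 0.05, other than MAP1LC3A and CTSZ, the log2 fold changes lay between -0.16 and 0.17.

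**Figure D3:**
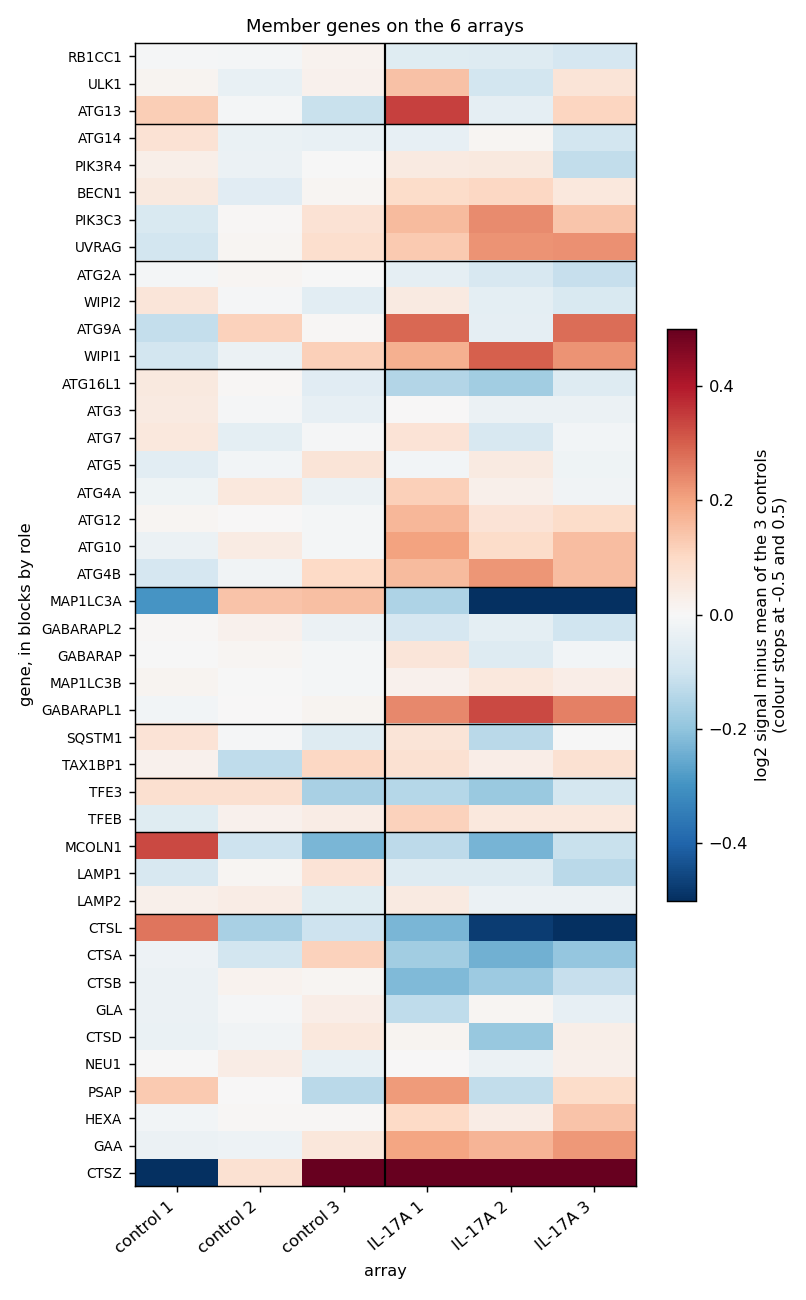
Log2 signal of the 42 genes on each array (columns, controls left and IL-17A right) minus the mean of the 3 controls, in blocks by role; colour stops at -0.5 and 0.5. GABARAPL1 is red on all 3 IL-17A arrays and near white on the controls, MAP1LC3A and CTSL are dark blue on IL-17A replicates 2 and 3, and CTSZ is the gene whose controls differ most.

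Comparison within the scan of the controls used IL-17A replicate 1 alone. It shares that array and all 3 controls with the estimate from all arrays, so that the estimates are given side by side and a like sign is no separate support. With scan as a block, 6 genes had an unadjusted p under 0.05 from limma, GABARAPL1, GAA, ATG10, ATG12 and ATG13 higher and CTSB lower, and none had an adjusted one, as 0.21% of all genes did. The median log2 fold change of the 42 genes was then 0.05, with 28 higher and 14 lower, and that of all tested probes was 0.01. The shares of all genes that were higher, or had an unadjusted p under 0.05, in this fit are not given here. These counts are therefore not read as a trait of the 42 genes.

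**Figure D4:**
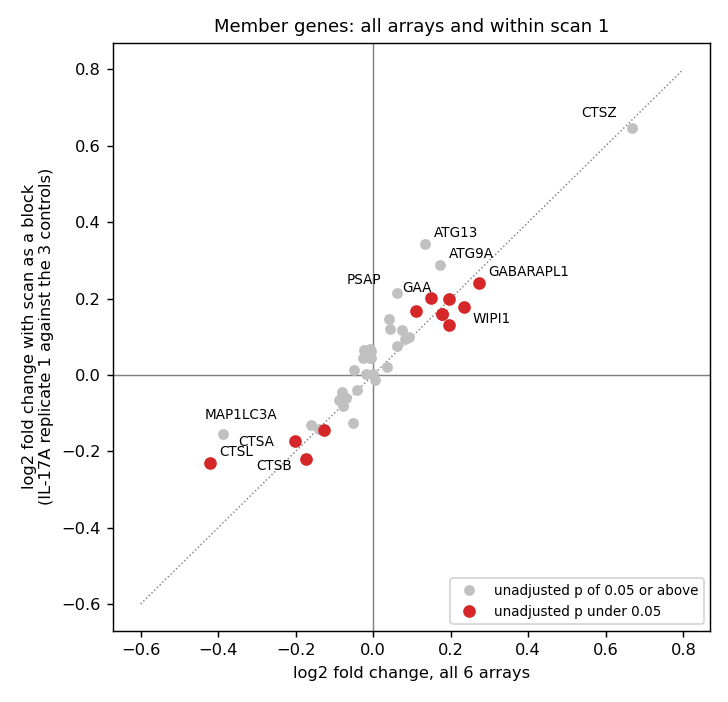
Log2 fold change of the 42 genes on all 6 arrays (x axis) against the value with scan as a block, which compares IL-17A replicate 1 with the 3 controls of its scan (y axis). Red points had an unadjusted p under 0.05 on all arrays, and the dotted line marks equal values. Both axes share 4 arrays. CTSL and MAP1LC3A lie nearer to 0 on the y axis, and ATG13 and ATG9A lie farther from it.

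A further 97 autophagy and lysosome genes, listed by role from general knowledge and not by how they moved, were examined beside these. Of the 93 that were tested, 4 rose and 3 fell (adjusted p under 0.05 from limma), or 7.53% against 7.85% of all genes, and their median log2 fold change was 0.03. None passed 1.5-fold with an unadjusted p under 0.05.

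Of 31 other autophagy genes, ATG2B rose and ATG101 fell. ATG2B, a lipid transfer protein like ATG2A, rose from 9.11, 9.17 and 9.30 to 9.48, 9.56 and 9.46, a log2 fold change of 0.31 (adjusted p = 0.0465). ATG101, the ULK complex subunit that binds ATG13, fell from 7.59, 7.57 and 7.54 to 7.36, 7.30 and 7.27, by 0.25 on the log2 scale (adjusted p = 0.0349). Both differences were wider than the spread within either group.

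Of 15 genes of the V-ATPase, the proton pump that acidifies lysosomes, 2 fell and none rose, where 3.48% of all genes fell and 4.37% rose. A negative log2 fold change was found for 11 of the 15, as for 49.1% of all genes. ATP6V0C, ATP6V1B2 and ATP6V1F, which were among these, were near 0 (-0.005, -0.010 and -0.004). With scan as a block they had 0.006, 0.137 and 0.043, while the other genes kept their sign. The count of negative values is therefore not read as a trait of the V-ATPase. ATP6V0B, a subunit of the membrane ring, had log2 signals of 9.61, 9.56 and 9.48 in the controls and 9.21, 9.17 and 9.12 with IL-17A. ATP6V0D1, which joins the membrane part to the stalk, had 8.94 to 9.14 in the controls and 8.58 to 8.70 with IL-17A. Neither overlapped between the groups. They fell by 0.38 and 0.38 on the log2 scale (adjusted p = 0.0315 and 0.0374 from limma), and with scan as a block their log2 fold changes were -0.34 and -0.37 (unadjusted p = 0.00531 and 0.0171), but the calls were lost (adjusted p = 0.111 and 0.143). Both promoters held the CLEAR core, as did 11 of the 70 further genes with an entry (15.7%). Of these 11, 3 were higher and 8 lower, where 49.1% of all genes were lower. SNAP29 and GALNS, 2 of the lower genes, had -0.043 and -0.041. With scan as a block they had 0.102 and 0.086, while the other genes with the core kept their sign. This count, too, is not read as a trait of promoters with the core.

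Of 29 other lysosomal enzymes, CTSH, a cathepsin with aminopeptidase activity, and MANBA, the beta-mannosidase, rose, and none fell. CTSH rose from 6.66, 6.67 and 6.70 to 7.01, 6.96 and 6.96, a log2 fold change of 0.30 (adjusted p = 0.0313 from limma), opposite in sign to CTSA, CTSB and CTSL. MANBA had a log2 fold change of 0.26 (adjusted p = 0.0377). Of 18 other membrane and delivery genes, TPCN1, an endolysosomal cation channel, rose by 0.28 on the log2 scale (adjusted p = 0.0389). Like that of GABARAPL1, these calls did not all hold when an array was left out, and with scan as a block, or without any single array other than control replicate 3, none of the 93 genes had an adjusted p under 0.05.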

How the data were processed

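Agilent Whole Human Genome arrays (1 colour, Cy3) were extracted by the authors with Feature Extraction 11.0.1.1. The deposited files give an intensity per spot, background subtracted and not normalized between arrays, with median brightness values and flags of 0 or 1 (other columns). The deposited series table holds the authors' quantile-normalized log2 values (GeneSpring GX), used as an alternative; across probes they correlated with the log2 intensities at 0.9996 to 0.9998 above a shared lowest value of 2.32 to 2.33. Their direction and scale follow from this, and the centring was common to all arrays, with a median of 4.95 on each.

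Here, control spots and non-uniform spots (61 values) were left out, intensities below 1 were set to 1, the 43118 spots were averaged on the log2 scale to 34127 probes, and quantile normalization between arrays followed, the study's own choice. No spot was saturated. Probes detected on at least 3 of 6 arrays (23945) entered a two-sided limma 3.58.1 test in R 4.3.3 that had no covariates, with Benjamini-Hochberg adjustment over all of them. The smallest p that an exact permutation test can give for 3 against 3 arrays is 0.1. Probes were named through RefSeq accessions (GRCh38.p14 gene names, 25771 probes), and the arrays are annotated on an earlier build. Alternatives covered scaling, background correction, detection filter, variance model, blocks by replicate number and scan, the series table and each array left out. The fit was tested on simulated data with independent noise on each array and no scan effect, which cannot test the overlap of scan and treatment.

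Per-array values are given for genes with an adjusted p under 0.05 or an absolute log2 fold change of at least 0.3, and further for those with an unadjusted p under 0.05 and for ATG5, SQSTM1 and TFEB, added after their values were seen. Of the further genes, up to 4 higher and 4 lower with an adjusted p under 0.05 and the largest log2 fold changes are named. Members and lists were chosen with earlier results of these data known. Replicate numbers did not pair the arrays (correlations of deviations -0.09 to -0.00).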

Additional observations from a re-analysis of the deposited data

How the results depend on the processing

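The number of the 42 genes with an adjusted p under 0.05, 1 as reported, was 0 without normalization between arrays, 0 with the replicate block, 0 with scan as a block and 0 without any single array; limma then gave an unadjusted p under 0.05 to 6 higher and 2 lower genes, 6 and 3, 5 and 1, and 4 to 8 and 1 to 5, in that order. It was 2 with normexp background correction (offset 50), 2 with probes detected on all 6 arrays, 2 with a floor under dim signals, set where signals are still well above background, 4 with the mean over the probes of a gene and 8 with a variance trend. Of all tested probes, 7.59% passed as reported, 8.52% with normexp, 11.2% with probes detected on all arrays and 8.35% with the floor. The share was 16.1% with a variance trend and, of all genes, 11.6% with the mean over probes. It was 0.192% without normalization, 0.0167% with the replicate block and 5.21% with the methods' t-test. GABARAPL1 had an unadjusted p under 0.05 in all 18 alternatives, with log2 fold changes of 0.21 to 0.38, and an adjusted p under 0.05 in 9 of them (0.00755 to 0.136 in all). The methods' t-test gave 1 gene after Benjamini-Hochberg adjustment, 10 higher and 6 lower at an unadjusted p under 0.05, and 0 that also passed 1.5-fold. For the counts at an unadjusted p in this paragraph, the shares of all genes in the same fits are not given here. Those counts are therefore not read as a trait of the 42 genes. Genes past 1.5-fold and an unadjusted p under 0.05 numbered 0 to 1 with 1 array left out. The median log2 fold change moved to 0.036 without normalization and to 0.054 with scan as a block. The 7 calls among the further genes became 0 without normalization, 0 with the replicate block, 0 with scan as a block, 4 with the methods' t-test, 11 with normexp, 16 with a variance trend, and 0 to 4 with 1 array left out. With normexp, ATG10 was 0.08, ATG16L1 -0.08 and CTSB -0.11; ATG4B was 0.08 with the mean over its probes. ATG16L1 turned to 0.050 with the mean over its probes, which differ in sign. Of 252 values for 14 genes, 199 had the direction reported and fell on the same side of an unadjusted 0.05, 46 lost that threshold, 6 gained it and 1 reversed. Scalings moved the median of all probes by at most 0.02 on the log2 scale, and the upward share of all calls from 58.3% to 49.4% with 75th percentile scaling, 45.7% without normalization and 29.2% with scan as a block. Same-numbered arrays did not deviate together, and 0 of the 3 IL-17A arrays correlated best with the control of its own number, so the block tests only a shared number; it called 4 probes in all, and all 4 were among the 1818 called without it. Fewer arrays or residual degrees of freedom remain in the fits with a block or an array left out; the cause of the other differences was not tested. Signal over background limits MAP1LC3A, CTSL and MCOLN1.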
